A study of Homo sapiens with 6 samples.

Results

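The 9 genes described here encode the core of MHC class I antigen presentation: the heavy chains HLA-B, HLA-C and HLA-E, the light chain B2M, the peptide transporter subunits TAP1 and TAP2, and the immunoproteasome subunits PSMB8, PSMB9 and PSMB10. They were taken by symbol from the 26364 genes of a table of T47D cells, an established human line of luminal A breast cancer cells, and all 9 passed the filter on low values. The libraries came from cells transfected with an siRNA against ELF5 (siELF5, 3 libraries) or with a control siRNA (siNC, 3 libraries), with RNA harvested at 48 h. Each group received 1 siRNA product, and the catalogue numbers of both products differ, so a second sequence against ELF5 and a second control are not part of the comparison. The labels do not say whether replicates were separate cultures, and the p-values rest on the spread among these libraries, part or all of which may be technical.

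MHC class I molecules are built from a heavy chain and beta-2-microglobulin and carry short peptides to the cell surface, where cytotoxic T cells and natural killer cells read them. The peptides are cut by the proteasome, in which 3 catalytic subunits can be exchanged for interferon-inducible ones to give the immunoproteasome, and are pumped by the TAP transporter into the endoplasmic reticulum, where they are loaded. Epithelial cells keep this pathway at a basal level that interferons raise. ELF5, the target of the siRNA, belongs to the ETS transcription factors and acts in luminal cells of the breast.

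After ELF5 knockdown, 8 of the 9 genes rose and 1, PSMB10, fell. The increases ran from 1.14-fold for TAP1 to 1.69-fold for HLA-C, and PSMB10 fell to 78.8% of its siNC mean. Over all 16032 genes tested, 23.8% were called higher and 23.3% lower (47.1% in either direction). The threshold, the same for members and all genes, was an adjusted p under 0.05 in limma. This linear model, fitted on log2(normalised read count + 1), draws the spread of each gene toward that of genes of similar intensity. The median log2 fold change was 0.37 over the 9 members and 0.002 over all genes tested. The 3 siELF5 values lay above the 3 siNC values for the same 8 members and below them for PSMB10, whereas 27.9% of all genes tested were wholly above and 28.0% wholly below (55.9% either way).

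Target, depth and cell identity were checked first. ELF5 had a normalised read count of 3678, 3725 and 3638 in the siELF5 libraries, against 13225, 13148 and 12910.2 in the siNC libraries, so it stood at 28.1% of its siNC mean. Normalised read counts are gene counts over the size factor of the library, as deposited by the authors. Total assigned reads were 72.4 M to 83.7 M in siELF5 and 66.8 M to 83.3 M in siNC libraries, and the members had between 195 (PSMB9) and 38703 (HLA-B) whole reads in a library. All 10 luminal markers examined were present, with a summed normalised read count of 681186 to 704362 in siELF5 and 744867 to 791580 in siNC libraries. Of these markers 4 rose (GATA3, FOXA1, ESR1 and PGR, by 0.15 to 0.45 on the log2 scale). Another 3 fell, ELF5 itself and the abundant keratins KRT8 and KRT18, at -0.41 and -0.45. Over all genes tested 23.8% were called higher and 23.3% lower. GATA3 values overlapped between the groups. With a score of library GC content as a covariate GATA3 was at -0.16, FOXA1 at 0.16 and PGR at 0.25, none called. ESR1, ELF5, KRT8 and KRT18 stayed called. After quantile normalization KRT8 was at -0.02, not called. The 10 leukocyte markers summed to 328 to 387 in siELF5 and 268 to 280 in siNC libraries, and among them PTPRC, the pan-leukocyte gene CD45, CD3D and MS4A1 had no read in any siELF5 library. The leukocyte sum thus moved the same way as the class I genes, and its part in their increase was not tested. In such bulk libraries fewer cells of a type and less RNA per cell cannot be told apart. Of 6 fibroblast and endothelial markers, 3 were tested and those 3 fell (COL1A1, LUM and VWF, with VWF not called without siNC replicate 2, and LUM and VWF not called with a score of library GC content as a covariate), with a sum of 3387 to 3894 in siELF5 and 4249 to 5429 in siNC libraries.

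The promoters of these genes are shown because 8 members moved together and PSMB10 did not. The windows hold the 250 bases before the first listed RefSeq start of a gene (GRCh38.p14), 5′ to 3′ on the strand of the gene; 8 of the 9 members matched an entry, HLA-E being the other. Capitals mark matches, on either strand, to GAAA followed after any 2 bases by GAAA (the core of an interferon-stimulated response element), GGAAGT (an ETS core), GGG followed after any 5 bases by CC (a loose NF-kB-like pattern), TGACG (the core of a cyclic AMP response element) and CCAAT.
HLA-B, chr6:31357180-31357429, minus strand: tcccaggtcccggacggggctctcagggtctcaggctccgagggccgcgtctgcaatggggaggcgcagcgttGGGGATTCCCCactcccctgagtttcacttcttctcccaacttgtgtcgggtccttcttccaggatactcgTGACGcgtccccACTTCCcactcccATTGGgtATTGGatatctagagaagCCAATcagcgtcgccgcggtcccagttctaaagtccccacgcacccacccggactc
B2M, chr15:44711267-44711516, plus strand: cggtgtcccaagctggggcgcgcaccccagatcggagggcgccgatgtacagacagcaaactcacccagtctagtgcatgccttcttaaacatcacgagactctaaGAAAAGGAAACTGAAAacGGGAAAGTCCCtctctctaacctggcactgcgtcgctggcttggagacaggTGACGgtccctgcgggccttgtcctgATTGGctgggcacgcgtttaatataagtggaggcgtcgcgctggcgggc
TAP1, chr6:32853705-32853954, minus strand: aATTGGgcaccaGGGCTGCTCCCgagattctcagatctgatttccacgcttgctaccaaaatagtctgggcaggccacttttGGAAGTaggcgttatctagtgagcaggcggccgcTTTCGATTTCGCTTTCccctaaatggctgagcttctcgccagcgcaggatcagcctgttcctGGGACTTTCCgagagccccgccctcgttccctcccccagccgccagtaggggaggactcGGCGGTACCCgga
TAP2, chr6:32838740-32838989, minus strand: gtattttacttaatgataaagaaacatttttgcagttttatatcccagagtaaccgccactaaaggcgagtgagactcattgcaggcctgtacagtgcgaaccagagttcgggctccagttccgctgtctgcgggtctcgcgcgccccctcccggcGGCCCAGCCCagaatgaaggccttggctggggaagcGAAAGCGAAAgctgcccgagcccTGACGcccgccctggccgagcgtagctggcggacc
PSMB9, chr6:32853942-32854191, plus strand: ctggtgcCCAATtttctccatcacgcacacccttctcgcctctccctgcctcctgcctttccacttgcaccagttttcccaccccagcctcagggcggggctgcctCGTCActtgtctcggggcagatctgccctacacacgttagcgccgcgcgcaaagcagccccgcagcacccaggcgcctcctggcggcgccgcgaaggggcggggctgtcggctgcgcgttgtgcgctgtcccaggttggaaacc
PSMB10, chr16:67936851-67937100, minus strand: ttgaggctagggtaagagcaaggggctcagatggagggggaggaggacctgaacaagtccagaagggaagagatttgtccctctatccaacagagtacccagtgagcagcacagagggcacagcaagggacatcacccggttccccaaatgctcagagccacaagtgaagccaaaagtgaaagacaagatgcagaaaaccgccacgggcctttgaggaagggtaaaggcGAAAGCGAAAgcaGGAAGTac

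The interferon element core was in 4 of the 8 member windows (B2M, TAP1, TAP2 and PSMB10) and in 3.0% of 35116 windows of all RefSeq starts in the same table. In the TAP1 and B2M windows it matched at 2 overlapping positions. GGAAGT was in 3 of 8 (HLA-B, TAP1 and PSMB10) and in 19.5% of all windows. TGACG was in 6 of 8 against 21.2%, CCAAT in 5 of 8 against 32.0%, and the NF-kB-like pattern in 5 of 8 against 54.4%. The windows of TAP1, which rose, and PSMB10, which fell, held both the interferon element core and the ETS core. Those of HLA-C, PSMB8 and PSMB9, which rose, had no exact match to either pattern. Variants of these elements were not searched for. The counts depend on the start used: with the other listed starts of TAP1 and PSMB8 the interferon element core was in 3 of 8, GGAAGT in 2, TGACG in 5 and CCAAT in 4, and the NF-kB-like pattern was again in 5. TAP1 and PSMB9 lie head to head, with starts 488 bases apart on opposite strands, and their windows share 13 bases. The TAP1 matches to the interferon element core and the ETS core lie between those starts, outside the PSMB9 window. In the HLA-C window, which is not printed, a CCAAT match shared a base with an NF-kB-like match; in the HLA-B, TAP1 and B2M windows NF-kB-like matches overlapped each other. A match says that these letters are present and no more, and the lack of one does not show that an element is absent.

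The classical heavy chains HLA-B and HLA-C, which present peptides to cytotoxic T cells, rose most in absolute reads. HLA-B had 35049.9, 34478 and 32596 normalised reads in the siELF5 libraries, against 21153, 21209.8 and 22579.6 in the siNC libraries. The groups were far apart, with every siELF5 library well above the highest siNC library. Its log2 fold change was 0.65 (SE 0.036, limma adjusted p = 3.43e-08). HLA-C had 17084, 17594 and 16146 normalised reads in the siELF5 libraries, against 9085, 10069 and 11027 in the siNC libraries. The siNC libraries of HLA-C were the most spread of the heavy chains, and the groups did not overlap. The log2 fold change of HLA-C was 0.76 (SE 0.058, limma adjusted p = 4.92e-07), exceeded by 6.21% of the genes tested, against 8.01% for HLA-B.

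HLA-E, a heavy chain of low polymorphism that presents leader peptides of other class I chains to natural killer receptors, rose less. It had 9283, 9561 and 9175 normalised reads in the siELF5 libraries, against 7434, 7469 and 7828 in the siNC libraries. The log2 fold change was 0.30 (SE 0.035, limma adjusted p = 1.8e-05). B2M, the light chain shared by all class I heavy chains, had 29070.1, 30152 and 28810.5 normalised reads in the siELF5 libraries, against 23419.8, 22527 and 22243 in the siNC libraries. No siELF5 value of either gene reached down to the siNC range. The log2 fold change of B2M was 0.37 (SE 0.031, limma adjusted p = 1.32e-06), a 1.29-fold increase, against 1.57-fold for HLA-B and 1.69-fold for HLA-C.

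**Figure D1:**
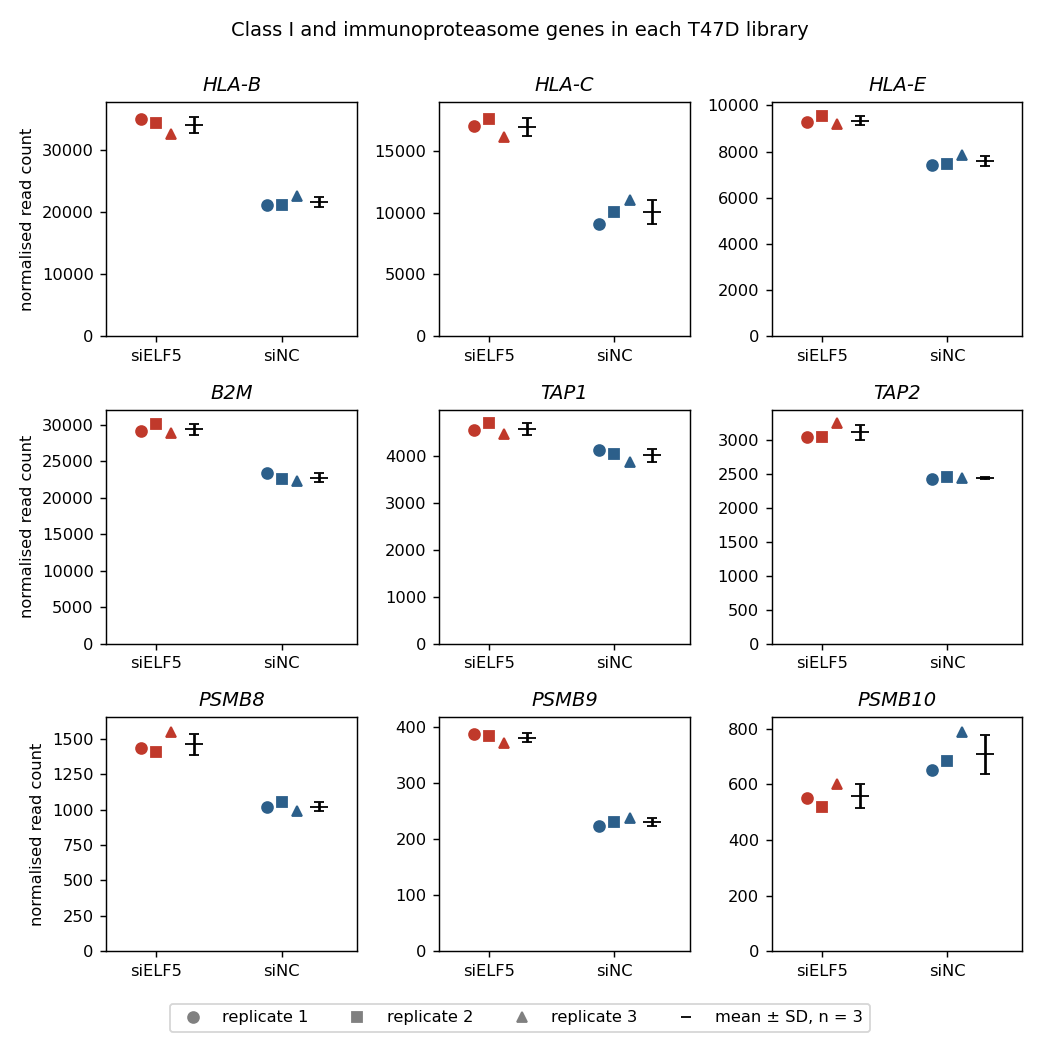
Normalised read count of each member (vertical axis, from 0) in the 3 siELF5 and 3 siNC libraries, with 1 marker shape per replicate number and the group mean ± SD (n = 3) in black. The siELF5 points lie above the siNC points for 8 genes and below them for PSMB10, where the means were 557 and 707.

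Both subunits of the TAP transporter, which form a heterodimer, rose. TAP2 had 3041, 3043 and 3237 normalised reads in the siELF5 libraries, against 2414, 2445 and 2430.02 in the siNC libraries. The siNC libraries were nearly alike, with an SD of 15.6, and the groups were well apart. The log2 fold change of TAP2 was 0.35 (SE 0.044, limma adjusted p = 3.19e-05). TAP1 had 4543, 4709 and 4476 normalised reads in the siELF5 libraries, against 4136, 4039 and 3863 in the siNC libraries. Relative to its level, its groups lay closest together of the members that rose. Its log2 fold change of 0.19 (SE 0.041, adjusted p = 0.00211 in limma) was exceeded by 28.06% of the genes tested. The difference between the TAP1 and TAP2 responses was not tested.

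The immunoproteasome subunits went in both directions. PSMB9, the subunit beta1i that reduces caspase-like cutting when it is built in, had 388.5, 384.7 and 372.8 normalised reads in the siELF5 libraries, against 224.2, 231.5 and 237.8 in the siNC libraries. Both groups were tight, and the log2 fold change was 0.72 (SE 0.098, limma adjusted p = 6.81e-05). PSMB8, the chymotrypsin-like subunit beta5i, had 1434, 1406 and 1546 normalised reads in the siELF5 libraries, against 1015, 1053 and 988.8 in the siNC libraries. It rose by 0.52 on the log2 scale (SE 0.06, adjusted p = 1.95e-05 in limma). PSMB10, the trypsin-like subunit beta2i, had 552.4, 518.1 and 601.8 normalised reads in the siELF5 libraries, against 650.8, 683.4 and 787.4 in the siNC libraries. The highest siELF5 value lay below the lowest siNC value, and PSMB10 fell by 0.34 on the log2 scale (SE 0.091, limma adjusted p = 0.0082). PSMB10 lies on chromosome 16 and B2M on chromosome 15, and the other 7 members lie on chromosome 6.

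**Figure D2:**
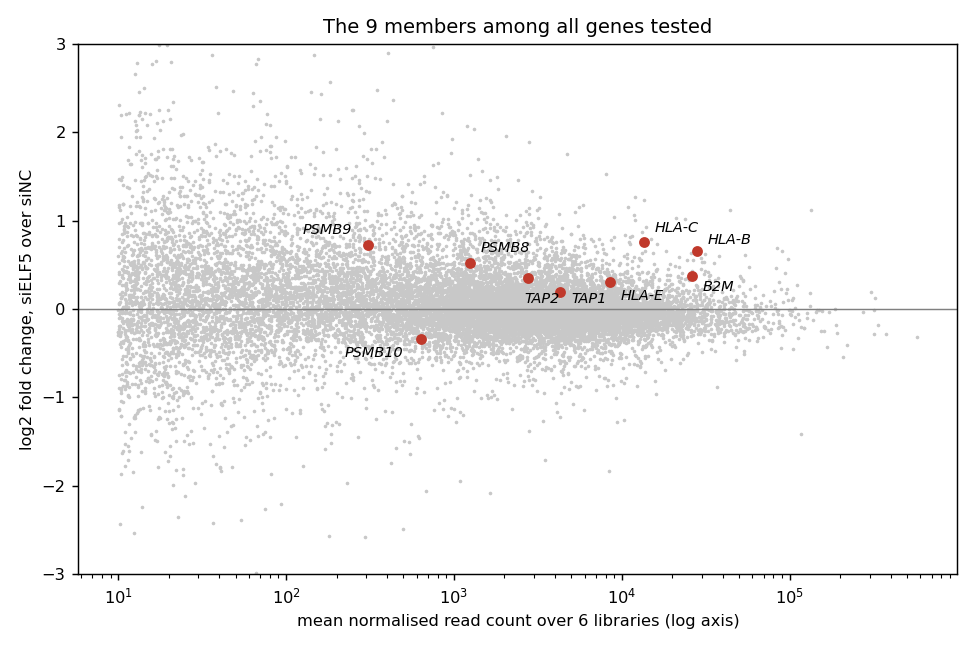
Log2 fold change of siELF5 over siNC (vertical axis) against the mean normalised read count over the 6 libraries (horizontal log axis) for all genes tested in grey and the 9 members in red. HLA-C (0.76) and PSMB9 (0.72) stand highest of the members and PSMB10 (-0.34) is the member below 0; 22 genes beyond 3 on either side are outside the axis.

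Levels of different members can be set side by side only per length of transcript, here the APPRIS principal transcript of GENCODE 29. In siELF5 libraries the order ran from HLA-B (22005 normalised reads per kilobase) through B2M (17211), HLA-C (11029.5), HLA-E (3591), TAP1 (1546), PSMB8 (1301), TAP2 (1244) and PSMB9 (488) to PSMB10 (458). In siNC libraries it ran from HLA-B (13993) through B2M (13331), HLA-C (6549.7), HLA-E (2913), TAP1 (1356), TAP2 (973), PSMB8 (907) and PSMB10 (581) to PSMB9 (296). The pairs PSMB8 and TAP2, and PSMB9 and PSMB10, stood in the opposite order in each group. Library ranges overlapped between PSMB8 (1251 to 1375) and TAP2 (1218 to 1296) and between PSMB9 (477 to 497) and PSMB10 (425 to 494) in siELF5 libraries, and between HLA-B (13674 to 14596) and B2M (13045.5 to 13736) in siNC libraries; no other neighbours in either order overlapped. By mean over the 6 libraries HLA-B ranked 212 and PSMB9 ranked 8329 of 23774 genes with a transcript length.

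Base composition of the libraries moved with the siRNA groups. A library GC score, the median deviation of the most GC-rich of 10 classes of genes minus that of a middle class, was 0.23, 0.28 and 0.22 in siELF5 libraries and -0.42, -0.22 and -0.075 in siNC libraries (replicates 1, 2 and 3), without overlap. Among the siNC libraries HLA-B, HLA-C, HLA-E, PSMB9 and PSMB10 were lowest in the one with the lowest score and highest in the one with the highest. B2M and TAP1 ran in the opposite order, and TAP2 and PSMB8 in neither. HLA-C has a transcript GC content of 60.2%. Its log2 fold change of 0.76 stood beside a median of 0.09 among 888 genes tested within 1 percentage point of its GC content. PSMB10 has nearly the same GC content, 60.1%, and differed in the opposite direction. B2M is the least GC-rich member, at 39.4%.

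With a per-library correction for GC content all 9 calls held, 8 higher and 1 lower, where 23.1% of all genes were called higher and 25.1% lower. HLA-C then had a log2 fold change of 0.64, HLA-B of 0.58, B2M of 0.41 and PSMB10 of -0.46. With the GC score added as a covariate, whose values do not overlap between the groups, so that score and siRNA cannot be told apart, 3.47% of all genes were called higher and 4.34% lower. HLA-B (0.52, adjusted p = 0.000467), B2M (0.45, adjusted p = 0.000894), HLA-C (0.35, adjusted p = 0.0117) and PSMB8 (0.59, adjusted p = 0.0249) still passed limma's test in that fit. TAP2 (0.36, adjusted p = 0.0633), PSMB10 (-0.65, adjusted p = 0.0729), TAP1 (0.30, adjusted p = 0.073), HLA-E (0.19, adjusted p = 0.1995) and PSMB9 (0.60, adjusted p = 0.205) did not, and all 9 kept their direction.

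**Figure D3:**
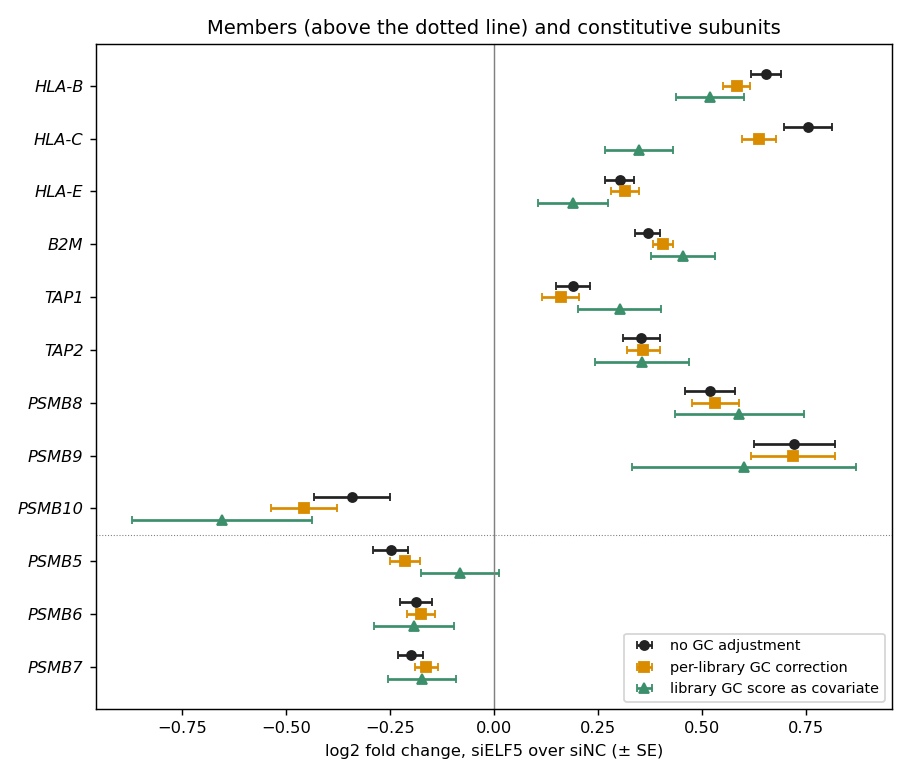
Log2 fold change ± SE (horizontal axis) of the 9 members and of the constitutive subunits PSMB5, PSMB6 and PSMB7 without GC adjustment, after the per-library correction and with the GC score as a covariate. The 3 estimates of a gene lie on the same side of 0 throughout, and those of HLA-C (0.76, 0.64 and 0.35) and PSMB10 (-0.34, -0.46 and -0.65) differ most.

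The HLA genes resemble each other, and reads were counted on a reference whose alleles need not be those of T47D. In GENCODE 29 transcripts 2.5% of the 50-base windows of HLA-B, 6.8% of those of HLA-C and 5.1% of those of HLA-E occur unchanged in another gene of the table, and the share was 1.1% for TAP1 and 1.3% for TAP2. The other 4 members shared none. Exons of the antisense gene PSMB8-AS1 and of PSMB9 cover 20.6% of the exon bases of PSMB8, and PSMB8-AS1 covers 9.5% of those of TAP1, on the opposite strand. PSMB9 shares 5.7% of its exon bases with PSMB8-AS1 on its own strand. The library kit does not mark strand, so such reads cannot be told apart. PSMB8-AS1 itself, chosen after its values were seen, had 58.4 ± 12.2 normalised reads in siELF5 and 27.1 ± 6.33 in siNC libraries (SD, n = 3 each), against 1462 and 1019 for PSMB8.

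Each immunoproteasome subunit takes the place of 1 constitutive subunit, PSMB8 of PSMB5, PSMB9 of PSMB6 and PSMB10 of PSMB7, and all 3 constitutive genes fell. PSMB5 averaged 7292 ± 375 in siELF5 and 8663 ± 300 in siNC libraries (SD, n = 3 each), a log2 fold change of -0.25 (SE 0.043, adjusted p = 0.000397 in limma). PSMB6 and PSMB7 had log2 fold changes of -0.19 (SE 0.039) and -0.20 (SE 0.031). With the GC score added as a covariate none of the 3 passed limma's test. PSMB5 was then at -0.08 (adjusted p = 0.68), whereas PSMB6 and PSMB7 were at -0.19 (SE 0.097) and -0.17 (SE 0.081), close to their values without it but with wider errors.

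The read count of an induced subunit as a percentage of that of its constitutive counterpart, which is not adjusted for length and is compared only between groups, was therefore computed in each library. For PSMB8 over PSMB5 it was 18.75%, 20.4% and 21.1% in siELF5 libraries, against 11.4%, 12.1% and 11.9% in siNC libraries. The mean log2 ratio differed by 0.77, a 1.7-fold higher ratio in siELF5. For PSMB9 over PSMB6 the share was 5.46%, 5.945% and 5.47% in siELF5 libraries, against 2.92%, 2.99% and 3.04% in siNC libraries, a difference of 0.91 or 1.88-fold. Neither ratio overlapped between groups, and each had an exact two-sided permutation p of 0.1, the smallest that 3 against 3 libraries can give, or 0.15 after adjustment over the 3 ratios. For PSMB10 over PSMB7 the share was 5.79%, 5.59% and 6.5% in siELF5 libraries, against 6.05%, 6.28% and 7.41% in siNC libraries. These overlapped, and the difference of -0.14 had an exact permutation p of 0.3 (0.3 adjusted); after the GC correction it was -0.29 with an exact p of 0.1, and without siNC replicate 3 it was -0.05.

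**Figure D4:**
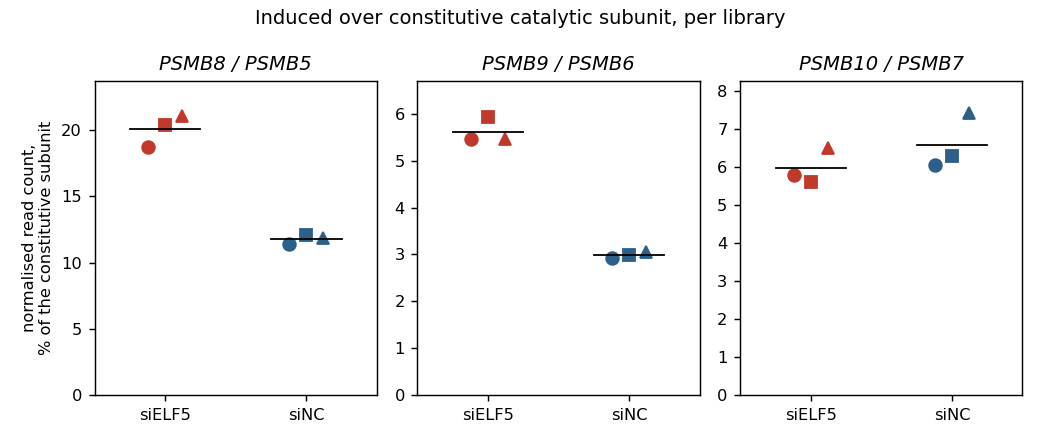
Normalised read count of each induced subunit as a percentage of that of the constitutive subunit it replaces (vertical axis, from 0), per library, with the group mean as a line and 1 marker shape per replicate number. The siELF5 libraries lie above the siNC libraries for PSMB8 over PSMB5 (18.75% to 21.1% against 11.4% to 12.1%) and PSMB9 over PSMB6, and overlap them for PSMB10 over PSMB7.

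Genes that trim peptides or help to load them rose in most cases. Of 13 tested, 9 rose and 1 fell (median log2 fold change 0.23), where 23.8% of all genes tested were called higher and 23.3% lower. CANX, calnexin, the chaperone that holds newly made heavy chains, rose 0.65 on the log2 scale, with 109498 ± 938 normalised reads in siELF5 and 69547 ± 1405 in siNC libraries (SD, n = 3 each, limma adjusted p = 2.58e-09). ERAP2, an aminopeptidase of the endoplasmic reticulum that trims class I peptides, rose by 0.68 (limma adjusted p = 6.28e-06), and LNPEP, an aminopeptidase of the endosomal cross-presentation route, by 0.40. HSPA5, the general chaperone BiP, rose by 0.18, a call lost with the GC score added as a covariate. TAPBP, tapasin, which bridges TAP and the heavy chain, was also called, at 0.27, and with the GC score added as a covariate it was at 0.003. With that covariate 3 of the 13 rose and none fell, where 3.47% of all genes were called higher and 4.34% lower. TPP2, a cytosolic peptidase, fell by 0.14. TAPBP and TPP2 were chosen after their values were seen.

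Other class I and class I-like genes rose as well, 11 of 17 tested, while 1 fell, and the median log2 fold change was 0.48. Over all genes tested 23.8% were called higher and 23.3% lower. MICB, a stress ligand of the natural killer receptor NKG2D, had 9502 ± 129 normalised reads in siELF5 and 5947 ± 85.8 in siNC libraries (SD, n = 3 each), a log2 fold change of 0.68 (SE 0.033, adjusted p = 9.46e-09 in limma). Its close relative MICA, chosen after its values were seen, fell by 0.20 on the log2 scale (SE 0.051). FCGRT, the heavy chain of the neonatal Fc receptor, rose by 0.89 and MR1, which presents vitamin B metabolites, by 0.60, and both pair with B2M. AZGP1, a secreted class I-like protein that does not need B2M, rose by 0.58. These 4 passed under every alternative setting tried. HLA-H and HLA-L, pseudogenes chosen after their values were seen, had log2 fold changes of 0.82 and 0.72 and could share reads with the classical genes; with the GC score as a covariate HLA-H was at 0.29 and HLA-L at -0.01, neither called, and after the per-library GC correction HLA-H was at 0.47. With that covariate 4 genes of the list rose and none fell, where 3.47% of all genes were called higher and 4.34% lower.

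The activators and assembly factors of the proteasome moved little. Of 11 genes, the constitutive subunits among them, 1 rose and 3 fell (median log2 fold change -0.04). Over all genes tested 23.8% were called higher and 23.3% lower. PSME1, the alpha subunit of the interferon-inducible activator PA28, rose by 0.11 (SE 0.037, limma adjusted p = 0.0307), a call that was lost without siNC replicate 2, siELF5 replicate 1 or siELF5 replicate 2, without an intensity trend and with the GC score. Its partner PSME2, chosen after its values were seen, was at 0.07 (limma adjusted p = 0.196).

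Of 18 transcription regulators of the class I genes tested, 2 rose, 5 fell and 11 did not pass (median log2 fold change -0.02), so 7 of 18 were called, where 47.1% of all genes tested were. RFX5, which binds the X box of class I and class II promoters, had 6667 ± 69.1 normalised reads in siELF5 and 7886 ± 121 in siNC libraries (SD, n = 3 each) and fell by 0.24 on the log2 scale (limma adjusted p = 6.3e-05). NFYA, a subunit of the factor that binds CCAAT boxes, fell by 0.27, and in the fit with the GC score it was at 0.01. CREB1, which binds cyclic AMP response elements, and EZH2, a histone methyltransferase known to silence class I genes, each fell by 0.19. ATF1, which binds the same elements as CREB1 and was chosen after its values were seen, also fell. With that covariate the calls of RFX5, CREB1 and EZH2 were lost, at -0.19, -0.11 and -0.08. NLRC5, the transactivator dedicated to class I genes, was low, with 186 ± 28 normalised reads in siELF5 and 156 ± 5.8 in siNC libraries (SD, n = 3 each, log2 fold change 0.25, limma adjusted p = 0.185). IRF9, a component of the interferon-activated factor ISGF3, rose by 0.45, and IRF1 was at -0.15 (limma adjusted p = 0.319); these and NLRC5 were chosen after their values were seen.

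Of 10 interferon receptors, kinases and their inhibitors, 2 rose and 1 fell, so 3 of 10 were called, where 47.1% of all genes tested were. With the GC score as a covariate none of the 10 passed. SOCS3, a feedback inhibitor of JAK signalling, had 121, 112 and 105 normalised reads in the siELF5 libraries, against 260, 208 and 253 in the siNC libraries. It fell by 1.08 on the log2 scale (SE 0.142, limma adjusted p = 5.06e-05), a call lost with the GC score as a covariate, at -1.0. IFNAR1, a chain of the type I interferon receptor, rose by 0.14 (0.17 with that covariate, not called), and PTPN2, a phosphatase that acts on JAK kinases, by 0.13. The call of PTPN2 was lost without siNC replicate 2, siNC replicate 3, siELF5 replicate 1 or siELF5 replicate 2, without an intensity trend and with the GC score.

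MHC class II genes present peptides from endosomes and are largely a feature of immune cells. Of 14 genes 8 were tested, and 2 rose and 2 fell (median log2 fold change -0.07), where 23.8% of all genes tested were called higher and 23.3% lower. HLA-DRA, the class II alpha chain that marks antigen-presenting cells, averaged 5.91 ± 2.3 normalised reads in siELF5 and 5.96 ± 2.84 in siNC libraries (SD, n = 3 each), under the filter. IFI30, a thiol reductase of the endosome induced by interferon gamma, had 1163, 1115 and 1190.3 normalised reads in the siELF5 libraries, against 584, 548 and 579.9 in the siNC libraries, a log2 fold change of 1.02 (SE 0.067, adjusted p = 1.39e-07 in limma). HLA-DRB5, a class II beta chain whose reads could be split with close copies, fell by 0.53 on the log2 scale, and without siNC replicate 2 it was at -0.46 and with the GC score at -0.70, not called in either fit. HLA-DQB1 fell by 0.23 and HLA-DMA rose by 0.15, calls that were lost under 10 and 13 of 20 alternatives.

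**Figure D5:**
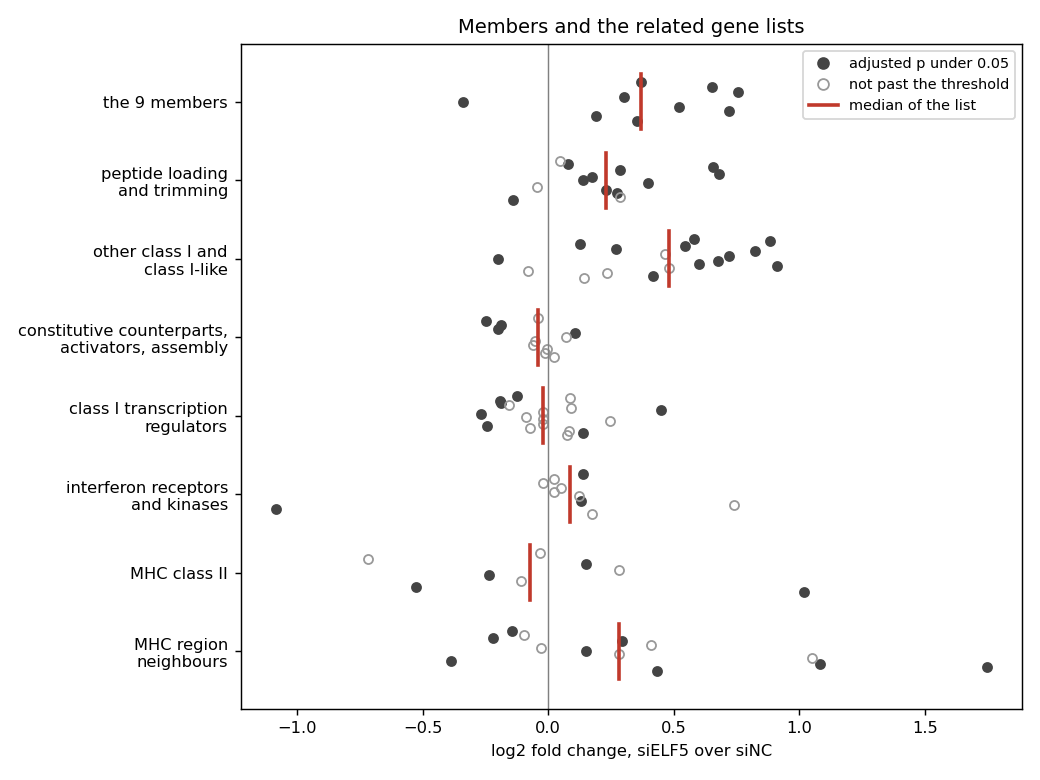
Log2 fold change of siELF5 over siNC (horizontal axis) for the 9 members and for the tested genes of 7 related lists, without the members; filled points passed limma's test, open points did not, and the red line is the median of a list. The medians are 0.37 for the members, 0.23 for peptide loading and trimming and 0.48 for other class I and class I-like genes, and lie between -0.07 and 0.28 for the other lists.

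Of 13 genes tested that lie near the members in the MHC region, 5 rose and 3 fell (median log2 fold change 0.28), where 23.8% of all genes tested were called higher and 23.3% lower. Those that rose include HLA-DMA, also counted among the class II genes, and PSMB8-AS1, whose exons overlap those of members. They also include PSORS1C1, which had 1 to 27 reads in a library and was chosen after its values were seen. TCF19 rose by 0.43 and CCHCR1 by 0.30, and CCHCR1 was at 0.11 with the GC score as a covariate. BRD2, a chromatin reader of the BET family, fell by 0.22 on the log2 scale and PRR3 by 0.39. With that covariate TCF19 still passed, at 0.40, and the calls of CCHCR1, BRD2 (-0.12) and PRR3 (-0.53, limma adjusted p = 0.055) were lost.

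The genes whose 6 values were most like the mean profile of the members were JAZF1, TXLNA, RHOQ, ABHD14B and PML. Likeness was the root mean square difference of centred log2 values over the 6 libraries, among 12741 genes, and was 0.014 for JAZF1 and 0.0213 for PML. JAZF1 had 1013, 1025 and 1000.3 normalised reads in the siELF5 libraries, against 766, 772 and 784 in the siNC libraries. The log2 fold changes of the 5 genes lay between 0.38 and 0.43.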

How the data were processed

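Total RNA of T47D cells was sequenced with the TruSeq RNA kit v2, which does not mark strand, per the labels' protocols. STAR 2.6, Subread featureCounts 1.6.3, DESeq2 1.22.1 and the build hg19 were used, per the submitters' processing notes; the sources used here do not give their order, settings or handling of shared reads. The deposited per-library values are a signal, gene counts divided by a size factor, since 100% of values are whole multiples of the value of 1 read (tolerance 1e-06). The deposited log2 fold change, test score and p-value are the authors' own results, per the file headers, and entered no test.

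A two-sided test in limma 3.58.1 (R 4.3.3), with a trend on intensity, was run on log2(value + 1) for the 16032 of 26364 genes with a mean of at least 10, with Benjamini-Hochberg adjustment over all of them and a threshold of 0.05. This scale understates the change of low genes. On recovered whole reads edgeR 4.0.16 called 3820 genes higher and 3758 lower, and DESeq2 1.42.0 called 3670 and 3622. The scripts were tested on simulated data with 200 changed genes. Recovered depth was 66.8 M to 83.7 M reads per library, so counting error is small for members with many reads. It is larger for PSMB9, which had 195 to 429 reads in a library. The SE of PSMB9, 0.098, rests on the intensity trend, and without that trend it was 0.038. Taken over all genes with enough reads, replicates differed by more than sampling noise, which need not hold for each member.

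GC content and length came from the APPRIS principal transcript in GENCODE 29 (GRCh38, whereas counts are on hg19), found for 14924 tested genes (93.1%). The GC correction subtracts a loess curve (span 0.3) per library; the GC score compares the top of 10 classes of genes by GC content with the fifth. Promoters came from RefSeq (GRCh38.p14), with the first start listed for a gene. Subunit ratios were compared by exact permutation tests.

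The members and lists were chosen with earlier results of these data known. Named are the 9 members, ELF5, PSMB5, PSMB6 and PSMB7, up to 4 called genes with the smallest adjusted p in each list, and the 5 genes most like the members (mean of at least 50). A gene outside this rule carries a remark that it was picked with its values known, and some genes of the lists are not reported here. Alternatives were other scalings, pseudocounts, filters, GC adjustments, count tests, a replicate block and the omission of each library.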

Additional observations from a re-analysis of the deposited data

How the results depend on the processing

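All 9 members kept their direction under 20 alternatives, and under 19 of them, all but the GC score covariate, their calls as well. With the GC score as a covariate 557 genes were higher and 696 lower, against 3818 and 3741 without it, and 4 members were higher and 0 lower. In that fit HLA-C was at 0.35, HLA-E at 0.19, TAP1 at 0.30 and PSMB10 at -0.65, and NFYA reversed to 0.01; the score does not overlap between the siRNA groups, so the cause cannot be told apart.

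Leaving out 1 library at a time gave 3143 to 3742 genes higher and 2944 to 3601 lower, with 8 members higher and 1 lower each time. The member log2 fold changes then ranged from 0.68 to 0.82 for HLA-C, from 0.16 to 0.21 for TAP1 and from -0.40 to -0.26 for PSMB10. The ratio differences ranged from 0.73 to 0.82 for PSMB8 over PSMB5, from 0.87 to 0.93 for PSMB9 over PSMB6 and from -0.20 to -0.05 for PSMB10 over PSMB7. Equal column totals moved the split to 4382 higher and 3134 lower, and quantile normalization to 3459 and 3984. A GC correction by the longest transcript, chosen after seeing the data, put HLA-C at 0.46.

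With the replicate number as a block 3641 genes were higher and 3533 lower, and 8 members higher and 1 lower. Deviations of same-numbered libraries correlated at 0.015, -0.035 and -0.056, and those of unlike-numbered libraries at -0.036 to 0.071. No pairing by number was seen in the values, which cannot show whether same-numbered libraries were handled together. The members had at least 195 reads in every library.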
